A study of Homo sapiens with 16 samples.

Results

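LRMDA, PPP2R2C, SH3BGRL, LRRN1 and ESYT3 are 5 protein-coding genes of the 57820 in the deposited tables. They were selected on the log2 fold changes between the sorted sublines of 1 cell line, for being very large, so their 7TGP-POS to 7TGP-NEG differences are given as a description, with no test. The libraries came from MDA-MB-231 and MDA-MB-436 cells, which are mesenchymal triple-negative breast cancer lines carrying the 7TGP reporter, in which Tcf/Lef binding sites drive eGFP. Repeated sorting of each line gave 1 eGFP-positive population (7TGP-POS) and 1 eGFP-negative population (7TGP-NEG), all carrying the puromycin-selected reporter. RNA was taken at low serum (0.5% FBS, day 3) and at standard serum (10% FBS, day 6), with 2 libraries in each of the 8 groups and 16 in all. The 2 libraries of a group are cultures of the same sorted population, so every p-value measures the spread between such cultures and not between independent sorts. The serum conditions also differed in day and, by the study's methods, in library kit and sequencer, though the sample labels name 1 kit for all libraries; these cannot be told apart from serum, and they were not tested against each other.

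Levels are CPM, read counts relative to the library size as scaled by the trimmed mean of M-values (TMM), and a fold change is 7TGP-POS over 7TGP-NEG from edgeR's quasi-likelihood fit of all 4 groups of a serum condition. A gene is called differentially expressed (DEG) when its Benjamini-Hochberg adjusted p over all tested genes is under 0.05 and it moved by 1 or more on the log2 scale. Total counts per library were 27918418 to 32667756 at low serum and 31827130 to 46044073 at standard serum. The mesenchymal genes VIM, FN1, AXL and ZEB1 were above 10 TPM (a level per transcript length) in the mean of every group, CDH2 was under 1 TPM in MDA-MB-231, and SNAI2 was at 2.19 to 4.16 TPM in MDA-MB-436 and higher in MDA-MB-231. Of 6 epithelial markers, CDH1 (at or under 0.1 TPM) and ESRP1 (under 1 TPM) were low, while KRT8 (192 to 361 TPM), KRT18 (80.8 to 408 TPM), CLDN4 (2.15 to 39.3 TPM) and EPCAM (2.06 to 11.7 TPM) were present. ESR1 was at or under 0.175 TPM and PGR at or under 0.19 TPM in the mean of every group, while ERBB2 was at 17.9 to 27.8 TPM. The endothelial marker CDH5 was at or under 0.05 TPM in the mean of every group. The leukocyte marker PTPRC was at 4.04 TPM in MDA-MB-231 7TGP-POS and 3.13 TPM in 7TGP-NEG at standard serum and at or under 0.115 TPM in MDA-MB-436; its part in any result was not tested.

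The 5 proteins belong to different systems. LRMDA (leucine-rich melanocyte differentiation associated, also C10orf11) is known from melanocytes, where its loss causes a form of oculocutaneous albinism. PPP2R2C is a B55 regulatory subunit of protein phosphatase PP2A, a trimer in which a scaffold and a catalytic subunit are joined by a regulatory subunit that directs the enzyme to its substrates, and it is best known from brain. SH3BGRL is a small protein of thioredoxin fold. LRRN1 is a neuronal membrane protein with leucine-rich repeats in its outer part. ESYT3 is an extended synaptotagmin, one of the tethers that hold the endoplasmic reticulum to the plasma membrane and move lipids between them.

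In GRCh37 (hg19) coordinates of Gencode, LRMDA lies on chromosome 10 (77191382 to 78319926, plus strand), PPP2R2C on chromosome 4 (6322305 to 6565327, minus strand), SH3BGRL on chromosome X (80457601 to 80554046, plus strand), LRRN1 on chromosome 3 (3841115 to 3891518, plus strand) and ESYT3 on the other arm of chromosome 3 (138153428 to 138200528, plus strand). RefSeq (GRCh38.p14) gives 10 start windows for the 5 genes, each with 250 bases before and 50 after an annotated start. Each was found once in GRCh37 by exact match. A start window is printed for LRMDA, PPP2R2C and SH3BGRL, the 3 genes with the largest folds between sublines, 5′ to 3′ on the strand of the gene, with each CG dinucleotide in capitals. The SH3BGRL window is chrX:80457351-80457650 (plus strand) and runs over the starts of both SH3BGRL and its neighbour HMGN5. The PPP2R2C window is chr4:6565477-6565776 (minus strand), the one nearest to the Gencode start of the gene. The LRMDA window is chr10:77542269-77542568 (plus strand), which lies 351137 bp inside the gene as Gencode draws it.
SH3BGRL: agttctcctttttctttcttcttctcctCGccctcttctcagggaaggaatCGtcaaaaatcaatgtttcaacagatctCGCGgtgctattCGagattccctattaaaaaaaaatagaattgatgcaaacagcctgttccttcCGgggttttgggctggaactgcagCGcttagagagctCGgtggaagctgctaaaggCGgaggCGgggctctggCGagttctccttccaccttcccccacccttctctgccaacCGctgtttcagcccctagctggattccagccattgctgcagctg
PPP2R2C: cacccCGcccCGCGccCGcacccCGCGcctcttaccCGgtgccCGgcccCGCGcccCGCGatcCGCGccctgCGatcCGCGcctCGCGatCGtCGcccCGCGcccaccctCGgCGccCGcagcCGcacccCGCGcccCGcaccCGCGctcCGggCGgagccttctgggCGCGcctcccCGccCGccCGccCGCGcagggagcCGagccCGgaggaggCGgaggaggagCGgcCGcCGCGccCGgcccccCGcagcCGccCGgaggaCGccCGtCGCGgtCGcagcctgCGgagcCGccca
LRMDA: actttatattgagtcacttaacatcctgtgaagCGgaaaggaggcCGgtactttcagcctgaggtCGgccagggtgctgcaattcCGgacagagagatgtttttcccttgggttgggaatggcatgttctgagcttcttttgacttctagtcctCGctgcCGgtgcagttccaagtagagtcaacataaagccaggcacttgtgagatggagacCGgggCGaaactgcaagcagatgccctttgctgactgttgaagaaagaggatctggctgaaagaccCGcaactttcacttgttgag

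The 3 windows differed widely in CG content. The SH3BGRL window held 12 CG dinucleotides and the LRMDA window 9, against a median of 14 over the 35116 windows of the table, while the PPP2R2C window held 59 and stood at percentile 99.88. The remaining windows held 42 CG for LRRN1, 30 for ESYT3, 2 for the other LRMDA start and 1, 3, 38 and 12 for the other PPP2R2C starts. No window of the 5 genes held ATCAAAG, letters from the Tcf/Lef site of the reporter, on either strand, while 2.62% of all windows did. Variants of this site were not searched, so the windows may hold other Tcf/Lef sites. TATAAA, searched on both strands, was found in the printed LRMDA window and in none of the other 9, against 11.5% of all windows. In the LRMDA window it reads TTTATA, on the strand opposite to the gene, at the far 5′ end and away from the annotated start. Gene counts do not show which start was used.

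LRMDA was far lower in 1 of the 4 sublines than in the others. At low serum the MDA-MB-231 7TGP-NEG libraries held 16 and 14 LRMDA counts and the 7TGP-POS libraries 574 and 543. At standard serum the counts were 14 and 10 in 7TGP-NEG and 809 and 798 in 7TGP-POS. The fitted log2 fold change was 5.27 (SE 0.16) at low serum and 5.97 (SE 0.17) at standard serum. These are a 38.6-fold and a 62.6-fold difference in level. MDA-MB-436 held LRMDA in both sublines, with 509 and 474 counts in 7TGP-NEG and 433 and 390 in 7TGP-POS at low serum, and 881 and 899 against 762 and 610 at standard serum. There 7TGP-POS was slightly lower in CPM in both conditions, with log2 fold changes of -0.23 (SE 0.09) and -0.62 (SE 0.10). The level was lowest in 7TGP-NEG of MDA-MB-231, followed by 7TGP-POS and then 7TGP-NEG of MDA-MB-436, and highest in 7TGP-POS of MDA-MB-231, and at standard serum the upper pair overlapped (22.3 and 25.6 CPM against 23.8 and 26.4 CPM). There, 7TGP-POS of MDA-MB-231 stood at 25.1 ± 1.81 CPM (SD, n = 2) and 7TGP-NEG of the other line at 23.9 ± 2.30 CPM, while 7TGP-NEG of MDA-MB-231 stood at 0.394 ± 0.0622 CPM.

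PPP2R2C had the opposite pattern in the same cell line. The MDA-MB-231 7TGP-NEG libraries held 847 and 814 counts at low serum and the 7TGP-POS libraries 29 and 28. At standard serum the counts were 1123 and 1020 against 23 and 35. The log2 fold changes were -4.79 (SE 0.12) and -5.29 (SE 0.13), and the mean level went from 31.1 to 1.12 CPM at low serum and from 35.5 to 0.896 CPM at standard serum. MDA-MB-436 held the most PPP2R2C in both sublines: 3346 and 2966 counts in 7TGP-NEG and 1779 and 1586 in 7TGP-POS at low serum, and 3305 and 3989 against 3117 and 2436 at standard serum. In CPM, the MDA-MB-436 7TGP-POS libraries were below the 7TGP-NEG libraries in both conditions, with log2 fold changes of -0.88 (SE 0.06) and -0.63 (SE 0.08). The order of mean levels was the same in both conditions. It had 7TGP-POS below 7TGP-NEG in each line and both sublines of MDA-MB-231 below those of MDA-MB-436. The ratio of the highest to the lowest was 97.3-fold at low serum and 109-fold at standard serum.

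SH3BGRL was far lower in 1 subline of the other line. In MDA-MB-436 the 7TGP-NEG libraries held 1273 and 1027 counts at low serum and the 7TGP-POS libraries 52 and 31. At standard serum the counts were 1384 and 1579 against 78 and 57. The log2 fold changes were -4.76 (SE 0.11) and -4.69 (SE 0.11), from 39.5 to 1.44 CPM and from 39.7 to 1.53 CPM. In MDA-MB-231 the direction was opposite: 1930 and 1874 counts in 7TGP-NEG and 2810 and 2740 in 7TGP-POS at low serum, and 1228 and 1061 against 2372 and 2592 at standard serum, with log2 fold changes of 0.61 (SE 0.06) and 1.03 (SE 0.08). The 7TGP-POS subline of MDA-MB-231 had the highest level in both conditions and that of MDA-MB-436 the lowest, a ratio of 75.3 at low serum and 50.6 at standard serum.

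**Figure D1:**
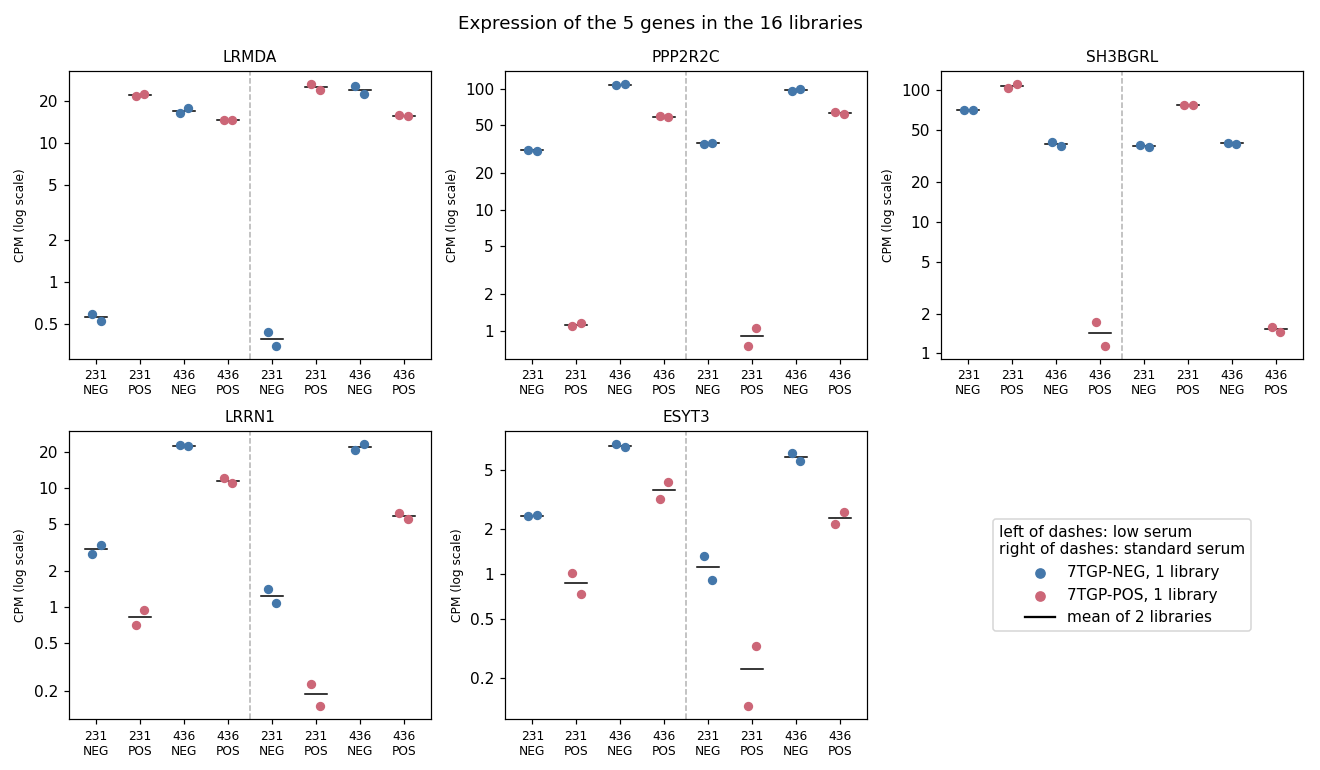
TMM-scaled CPM (y axis, log scale) of the 5 genes in the 16 libraries; points are libraries, bars are means of 2, the x axis gives cell line and subline, and the dashed line parts low serum (left) from standard serum (right). LRMDA, PPP2R2C and SH3BGRL have means of 0.394 to 1.53 CPM in 1 subline each and of 14.5 CPM or more in the others, while LRRN1 and ESYT3 are lower in 7TGP-POS of both lines.

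LRRN1 and ESYT3 did not have this shape. Both were lower in 7TGP-POS than in 7TGP-NEG of both cell lines, by folds that were smaller. In MDA-MB-231 7TGP-POS at standard serum their levels (0.189 and 0.229 CPM) were below that of SH3BGRL in MDA-MB-436 7TGP-POS, but they were low in 7TGP-NEG of MDA-MB-231 too (1.25 and 1.11 CPM). LRRN1 held 76 and 88 counts in MDA-MB-231 7TGP-NEG and 19 and 23 in 7TGP-POS at low serum, and 45 and 31 against 7 and 5 at standard serum. In MDA-MB-436 its counts were 706 and 597 against 357 and 296 at low serum and 709 and 934 against 298 and 216 at standard serum. Its log2 fold changes at low and standard serum were -1.89 (SE 0.23) and -2.73 (SE 0.34) in MDA-MB-231 and -0.97 (SE 0.10) and -1.91 (SE 0.13) in MDA-MB-436.

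ESYT3 had the lowest level per length (TPM) of the 5 genes in 6 of the 8 groups. It held 66 and 66 counts in MDA-MB-231 7TGP-NEG and 27 and 18 in 7TGP-POS at low serum, and 42 and 26 against 4 and 11 at standard serum. In MDA-MB-436 the counts were 233 and 191 against 95 and 112, and 223 and 233 against 106 and 102. The log2 fold changes were -1.48 (SE 0.26) and -2.25 (SE 0.39) in MDA-MB-231, the latter -3.07 without the second 7TGP-POS library, and -1.0 (SE 0.15) and -1.36 (SE 0.19) in MDA-MB-436. For LRRN1 and ESYT3 alike the order of mean levels was that of PPP2R2C in both conditions.

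**Figure D2:**
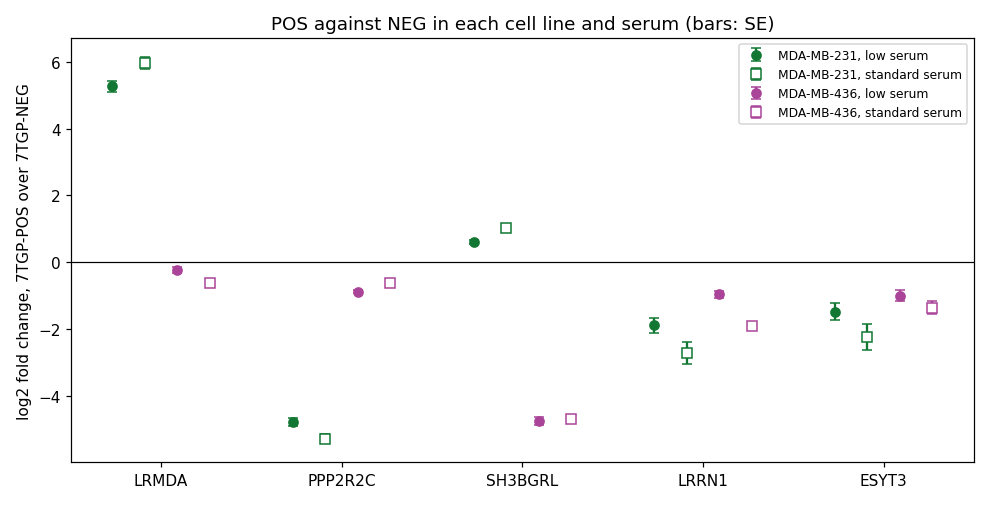
Log2 fold change of 7TGP-POS over 7TGP-NEG (y axis) for the 5 genes (x axis) in each cell line and serum condition; bars are SE from edgeR, and filled circles are low serum, open squares standard serum. LRMDA (5.27 and 5.97) and PPP2R2C (-4.79 and -5.29) are far from 0 in MDA-MB-231, SH3BGRL (-4.76 and -4.69) in MDA-MB-436, and LRRN1 and ESYT3 are below 0 in all 4 comparisons.

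The sizes can be read against all genes. Of the tested genes, 5.9% were DEGs in MDA-MB-231 and 10.5% in MDA-MB-436 at low serum, and 7.69% and 12.5% at standard serum; the same fits selected the 5 genes, so nothing is read from their own calls. The ranks below describe genes chosen for very large changes and test nothing. By absolute log2 fold change among the 15414 genes tested at standard serum, LRMDA ranked 51 and PPP2R2C 70 in MDA-MB-231, and SH3BGRL 188 in MDA-MB-436. Among the 16069 genes tested at low serum, LRMDA ranked 32 and PPP2R2C 46 in MDA-MB-231, and SH3BGRL ranked 143 in MDA-MB-436. Many genes above them had few counts: among the 11867 genes with at least 10 counts in every low-serum library, LRMDA ranked 1, PPP2R2C 2 and SH3BGRL 6. LRRN1 ranked 92 and ESYT3 171 in MDA-MB-231 in that set. Genes that fall below 10 counts are missing from it, and at standard serum LRRN1 and ESYT3 are among these.

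Next, the genes beside them on the chromosome were examined, taking the 5 nearest tested protein-coding genes on each side. These 50 neighbours played no part in the selection and were tested. In MDA-MB-231, 2 of 50 were DEGs at low serum and 6 at standard serum, and in MDA-MB-436, 8 were DEGs in each condition, beside the shares of all genes above. The count of 2 became 1 without the first 7TGP-NEG or the second 7TGP-POS library of MDA-MB-231, and the count of 8 at standard serum became 5 without the second 7TGP-NEG library of MDA-MB-436. The 10 neighbours taken in the cell line where a gene changed most held no DEG for LRMDA, LRRN1 and ESYT3 in either condition by edgeR, and none by DESeq2. At an unadjusted p under 0.05 with no limit on the fold, edgeR counted 6, 6 and 2 of 10 at low serum and 2, 6 and 1 at standard serum. The neighbours of PPP2R2C held 1 DEG at standard serum and none at low serum by edgeR or DESeq2 (5 at an unadjusted p under 0.05), and those of SH3BGRL held 2 in each by edgeR and 1 in each by DESeq2.

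HMGN5, a nucleosome-binding protein of the HMGN family, is the nearest neighbour of SH3BGRL. The genes run in opposite directions from starts 189 bp apart and do not overlap. In MDA-MB-436, HMGN5 held 1731 and 1452 counts in 7TGP-NEG and 619 and 574 in 7TGP-POS at low serum, and 863 and 1069 against 552 and 307 at standard serum. It fell in 7TGP-POS in both, with log2 fold changes of -1.38 (SE 0.07; adjusted p = 1.5e-20) and -1.42 (SE 0.20; adjusted p = 0.000503), a 2.61-fold and a 2.68-fold lower level, where SH3BGRL was 27.0-fold and 25.8-fold lower. HMGN5 went the other way in MDA-MB-231, from 351 and 346 to 585 and 539 counts at low serum (log2 fold change 0.75, SE 0.08, adjusted p = 3.87e-10, under the fold limit) and from 86 and 51 to 208 and 170 at standard serum (1.39, SE 0.27, adjusted p = 0.00508). The difference between the lines was 2.14 on the log2 scale at low serum (adjusted p = 3.4e-20) and 2.81 at standard serum (adjusted p = 0.000251). SH3BGRL and HMGN5 thus had the same direction in all 4 comparisons. Unlike SH3BGRL, HMGN5 kept at least 307 counts per library in MDA-MB-436 7TGP-POS.

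**Figure D3:**
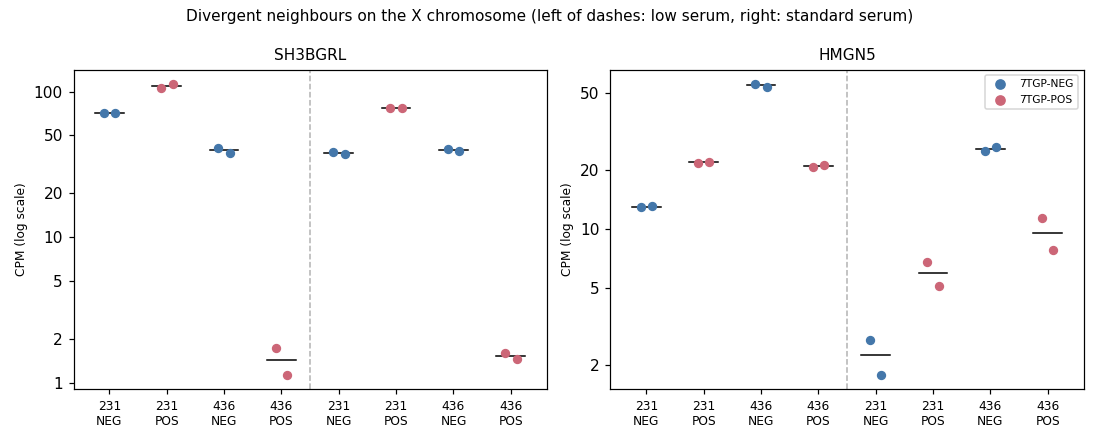
TMM-scaled CPM (y axis, log scale) of SH3BGRL and HMGN5 in the 16 libraries, with points for libraries, bars for means of 2, and low serum left and standard serum right of the dashed line. Both genes are higher in 7TGP-POS of MDA-MB-231 and lower in 7TGP-POS of MDA-MB-436, where SH3BGRL has 1.44 and 1.53 CPM and HMGN5 21.0 and 9.58 CPM.

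Beyond HMGN5 the X-linked neighbours differed between the lines. In MDA-MB-231, HDX, a homeobox gene 3.02 Mb away, rose at both serum conditions (log2 fold changes 1.01 and 1.42), BRWD3 rose at standard serum (1.02; 0.75 at low serum, adjusted p = 1.3e-14), and RPS6KA6, a ribosomal S6 kinase, fell in both (-2.10, adjusted p = 3.39e-05, and adjusted p = 2.45e-05). RPS6KA6 held few counts there, 33 and 26 in 7TGP-NEG and 8 and 5 in 7TGP-POS at low serum, and 19 and 25 against 2 and 2 at standard serum. In MDA-MB-436, none of HDX, BRWD3 and RPS6KA6 passed both limits, and TENT5D was called on few counts, 23 and 9 against 6 and 2 at low serum and 7 and 7 against 3 and 0 at standard serum. Both TENT5D calls were lost by DESeq2 and without single libraries. HDX, BRWD3, JAKMIP1, FOXL2NB, CNTN4, CNTN6, CHL1 and ZNF503-AS1 are named here after their values were seen. The 50 flanking genes whose mean was 1 CPM or more, in equal number on each side, spanned 29.5 Mb at low and 29.8 Mb at standard serum. Their median log2 fold change in MDA-MB-231 was 0.50 at low serum (41 of 50 higher) and 0.76 at standard serum (43 of 50). The medians over all genes of 1 CPM or more were -0.02 and 0.00. In MDA-MB-436 the median of the 50 flanking genes was -0.11 and -0.16. SH3BGRL itself stood at 0.61 and 1.03 in MDA-MB-231 and at -4.76 and -4.69 in MDA-MB-436.

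The 10 neighbours of LRMDA had log2 fold changes from -0.44 to 0.38 in MDA-MB-231 at low serum and from -0.35 to 0.86 at standard serum. ZNF503, a zinc-finger repressor 29.9 kb upstream, was at 304 and 292 counts in 7TGP-NEG and 210 and 211 in 7TGP-POS at low serum (log2 fold change -0.44, SE 0.10, adjusted p = 0.000704) and at 67 and 57 against 101 and 139 at standard serum (0.86, SE 0.38, adjusted p = 0.154). KCNMA1, a calcium-activated potassium channel 309 kb downstream, rose in MDA-MB-436 (1.65, adjusted p = 1.56e-13, and 1.67, adjusted p = 2.58e-08). Its values in MDA-MB-231 were 0.20 (SE 0.26, adjusted p = 0.576) and -0.35 (SE 0.36, adjusted p = 0.507), and the lines differed by -1.45 (adjusted p = 8.24e-05) and -2.02 (adjusted p = 0.000465). The 50 flanking genes, taken as for SH3BGRL, spanned 14.96 Mb. Their median was -0.03 at low serum and 0.03 at standard serum in MDA-MB-231. In MDA-MB-436 it was 0.14 (40 of 50 above 0) and -0.13 (31 of 50 below 0). The long noncoding genes that overlap LRMDA held at most 14 counts in any library. The noncoding gene ZNF503-AS1, 58.1 kb upstream on the same strand, held 213 to 570 counts in the MDA-MB-436 libraries and at most 2 in those of MDA-MB-231, 7TGP-POS included.

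PPP2R2C lies between WFS1, an endoplasmic reticulum membrane protein 17.3 kb away, and MAN2B2, a lysosomal mannosidase 11.6 kb away. In MDA-MB-231, WFS1 was at 159 CPM in 7TGP-NEG and 105 CPM in 7TGP-POS at low serum (log2 fold change -0.59, SE 0.05, adjusted p = 2.17e-12), and its value at standard serum was -0.25 (SE 0.10, adjusted p = 0.0817). MAN2B2 was at -0.25 (SE 0.05, adjusted p = 0.000295) and 0.16 (SE 0.08, adjusted p = 0.124). Both genes kept at least 1960 counts in every MDA-MB-231 library. S100P, a calcium-binding protein 130 kb away, fell in MDA-MB-231 at standard serum (474 and 430 counts against 208 and 215; -1.18, adjusted p = 3.3e-06), and the lines differed in both conditions (-1.76 and -1.06). In MDA-MB-436, JAKMIP1 fell in both conditions (-1.25 and -1.28) and MAN2B2 at standard serum (-1.05). All 10 neighbours had log2 fold changes below 0 in MDA-MB-231 at low serum, and 7 of 10 at standard serum. In MDA-MB-436, where PPP2R2C changed less, 8 of 10 were below 0 in each condition. Some of the signs rest on few counts, such as that of JAKMIP1 in MDA-MB-231 at low serum (0.243 CPM in 7TGP-NEG and 0.0767 CPM in 7TGP-POS). The 50 flanking genes of 1 CPM or more spanned 12.8 Mb at low and 11.4 Mb at standard serum. Of these, 40 were below 0 at low serum in each line (medians -0.16 in MDA-MB-231 and -0.21 in MDA-MB-436). At standard serum 37 and 40 were below 0 (medians -0.18 and -0.33).

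LRRN1 lies wholly within SUMF1, the formylglycine-generating enzyme of sulfatases, which runs on the opposite strand. By the study's methods both library kits kept the strand of the RNA. The strand setting of the counts is not given in the sources used here. Reads from the shared stretch, which is all of LRRN1, therefore cannot be assigned with certainty to either gene. In 7TGP-POS, SUMF1 was lower in MDA-MB-231 (1323 and 1387 counts against 957 and 949 at low serum; log2 fold change -0.44, adjusted p = 4.74e-07) and higher in MDA-MB-436 (598 and 510 against 1032 and 953; 0.87, adjusted p = 1.3e-13), and the difference between the lines was -1.31 at low serum (adjusted p = 9.87e-15) and -1.16 at standard serum (adjusted p = 6.32e-07). LRRN1 itself was lower in 7TGP-POS of both lines. CRBN, the substrate receptor of a ubiquitin ligase and the next gene on the other side, had the same pattern as SUMF1, with log2 fold changes of -0.48 and -0.39 in MDA-MB-231 and 0.54 and 0.44 in MDA-MB-436. Of the 29 genes whose mean was 1 CPM or more on this end of the chromosome, 25 had a log2 fold change below 0 in MDA-MB-231 at low serum (median -0.36) and 24 had one above 0 in MDA-MB-436 (median 0.19). At standard serum the counts were 22 below 0 in MDA-MB-231 (median -0.38) and 18 above 0 in MDA-MB-436 (median 0.21).

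ESYT3 lies between MRAS, a Ras-like GTPase 29.1 kb away, and CEP70, a centrosomal protein 12.7 kb away. MRAS was slightly higher in MDA-MB-231 7TGP-POS (0.46, SE 0.08, and 0.30, SE 0.11) and had log2 fold changes of -0.23 and -0.20 in MDA-MB-436. CEP70 had -0.03 and 0.17 in MDA-MB-231 and -0.46 and -0.32 in MDA-MB-436. The 50 flanking genes of 1 CPM or more, over 14.7 Mb, had medians of 0.15 and 0.13 in MDA-MB-231.

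CNTN4, a contactin on the LRRN1 side, fell in MDA-MB-436, from a mean of 3.73 to 0.302 CPM at low serum (-3.61, adjusted p = 5.12e-13) and from 3.99 to 0.0485 CPM at standard serum, where 7TGP-POS held at most 3 counts per library (adjusted p = 1.06e-09). The MDA-MB-436 calls of CNTN6, CHL1, FOXL2NB and TENT5D, and that of S100P at low serum, were of genes with means under 1 CPM in both sublines. The difference between the lines passed both limits for 9 of the 50 neighbours at low serum and 11 at standard serum, beside 11.7% and 13.8% of all tested genes.

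**Figure D4:**
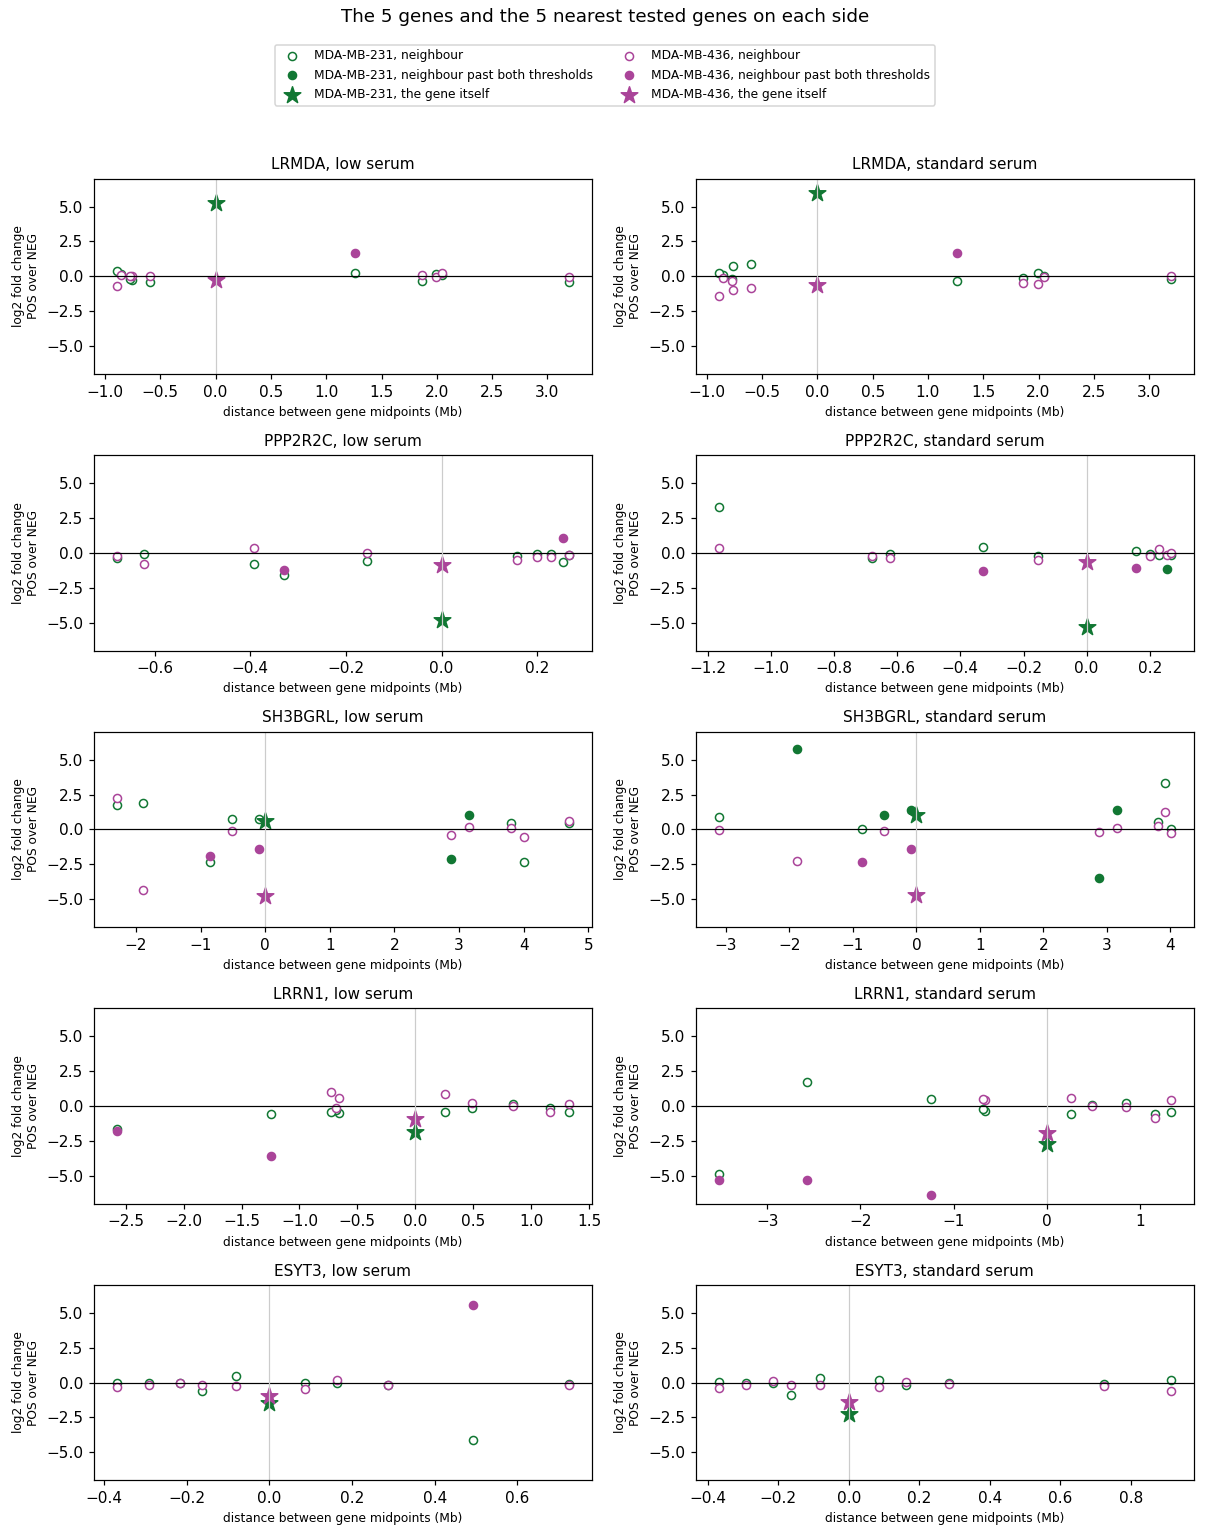
Log2 fold change of 7TGP-POS over 7TGP-NEG (y axis) against the distance between gene midpoints in Mb (x axis) for the 5 genes (stars) and their 5 nearest tested genes on each side (circles, filled where both limits were passed), low serum left and standard serum right, with 1 colour per cell line. The MDA-MB-231 circles beside LRMDA lie between -0.44 and 0.86, and beside SH3BGRL the HMGN5 circle of MDA-MB-436 lies at -1.38 and -1.42.

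The families of the 5 genes were examined next, with 5 lists of relatives and partners of which 89 genes were tested at low serum and 87 at standard serum. In MDA-MB-231, 7 of 89 and 8 of 87 listed genes were DEGs (7.87% and 9.2%), and in MDA-MB-436 17 and 18 (19.1% and 20.7%), beside 5.9% and 7.69%, and 10.5% and 12.5%, of all tested genes. The 24 PP2A subunits and regulators tested held no DEG in MDA-MB-231 by edgeR or DESeq2 (12 had an unadjusted p under 0.05 in each condition), where PPP2R2C was at 1.12 and 0.896 CPM in 7TGP-POS. Their median log2 fold change was -0.03 at low serum and -0.06 at standard serum, with -0.01 and 0.00 over all genes. The other B55 subunits had small log2 fold changes in MDA-MB-231 at low serum, -0.16 for PPP2R2A (adjusted p = 0.0621) and -0.15 for PPP2R2D (adjusted p = 0.0887), and PPP2R2B held at most 3 counts in any library. Per length, at low serum, MDA-MB-231 7TGP-NEG held 7.37 TPM of PPP2R2C, 13.3 TPM of PPP2R2A and 14.6 TPM of PPP2R2D, and 7TGP-POS held 0.23, 10.5 and 11.5 TPM. In MDA-MB-436 PPP2R2C was at 34.0 TPM in 7TGP-NEG, near PPP2R2D at 34.7 TPM. PPP2R2B fell in MDA-MB-436, from 27 and 27 counts to 14 and 6 at low serum (-1.40, adjusted p = 0.00622, lost by DESeq2 and without the second 7TGP-POS library) and from 31 and 36 to 8 and 3 at standard serum (-2.81, adjusted p = 9.68e-05).

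None of the 3 relatives of SH3BGRL was a DEG in any comparison by edgeR or DESeq2, though 3 at standard serum in MDA-MB-231 and 2 in each other comparison had an unadjusted p under 0.05. SH3BGRL3, the most abundant of them, was lower in 7TGP-POS in all 4 comparisons, with log2 fold changes of -0.58 and -0.72 at low serum and -0.69 and -0.72 at standard serum in MDA-MB-231 and MDA-MB-436, each with an adjusted p under 0.05. In MDA-MB-436 7TGP-POS at low serum the levels per length were 1.5 TPM for SH3BGRL, 17.0 TPM for SH3BGRL3, 4.71 TPM for SH3BGRL2 and 3.93 TPM for SH3BGR, and in 7TGP-NEG 49.5, 33.5, 7.18 and 3.48 TPM. At low serum SH3BGRL was thus the highest of the family in MDA-MB-436 7TGP-NEG and the lowest in 7TGP-POS. At standard serum SH3BGRL3 was the highest in 7TGP-NEG, with 167 TPM beside 64.5 TPM of SH3BGRL.

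The melanocyte genes, listed because of what LRMDA is known for, differed in level. TYR, MLANA and SOX10 held at most 3 counts in any library, and TYRP1 and DCT were under 1 TPM in the mean of every group. MITF was at 7.015 to 30.8 TPM in the group means. PMEL was at 5.21 to 9.6 TPM in MDA-MB-231 and under 1 TPM in MDA-MB-436. Of 15 listed genes tested at low serum, MC1R fell in MDA-MB-231 (-1.43, adjusted p = 1.13e-09) and TYRP1, GPR143 and MLPH rose in MDA-MB-436, and of 14 at standard serum TYRP1 rose in MDA-MB-231 and MITF, RAB38 and MLPH in MDA-MB-436. The calls of TYRP1 and GPR143 rested on few counts and were lost without single libraries. MLPH (melanophilin), which links Rab27a to myosin on melanosomes, itself had a near on-off pattern: 10 and 9 counts in MDA-MB-436 7TGP-NEG and 681 and 586 in 7TGP-POS at low serum, and 5 and 6 against 903 and 804 at standard serum (6.07, adjusted p = 2.75e-30, and 7.02, adjusted p = 6.2e-07), with 3926 to 21436 counts in MDA-MB-231. RAB32, a Rab of melanosome transport, had 0.76 and 0.14 in MDA-MB-231 and -0.43 and 0.15 in MDA-MB-436. MITF, the melanocyte transcription factor, had 0.44 and 0.59 in MDA-MB-231 and rose in MDA-MB-436 at standard serum (1.31, adjusted p = 4.04e-09).

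LRRN1 has 3 paralogs, which were at or near 0 in MDA-MB-231. LRRN2 and LRRN3 held at most 1 count there in any library, and LRRN4 at most 10. In MDA-MB-436, LRRN2 rose at low serum (39 and 24 counts against 86 and 92; 1.53, adjusted p = 8.52e-07) and LRRN3 fell (59 and 36 against 7 and 8; -2.61, adjusted p = 6.13e-07), the direction of LRRN1. Of the neuronal leucine-rich repeat genes, of which 23 were tested at low serum and 22 at standard serum, 5 rose and 1 fell in MDA-MB-231 at low serum and 5 rose and none fell at standard serum (medians 0.06 and 1.47 on the log2 scale, beside -0.01 and 0.00 over all genes), and in MDA-MB-436 5 rose and 5 fell, and 7 rose and 4 fell. DESeq2 called 6 and 7 of them in MDA-MB-231 and 8 and 7 in MDA-MB-436, and the shares over all genes were 5.9% and 7.69%, and 10.5% and 12.5%. In MDA-MB-231 at standard serum, 9 of the 22 had an unadjusted p under 0.05 by edgeR. The median of 1.47 includes genes at or near 0 counts, such as LRRN2 and LRRN3, whose fitted size depends on the prior count. SLITRK6, SLITRK5 and SLITRK1 rose in MDA-MB-231 in both conditions. SLITRK6 went from 12 and 8 counts to 467 and 510 at low serum (5.66, adjusted p = 2.65e-24) and from 11 and 11 to 690 and 723 at standard serum (5.91, adjusted p = 8.32e-14). FLRT2 and AMIGO2 rose in MDA-MB-436 in both conditions (3.39 and 2.21, and 1.60 and 1.47).

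The other extended synaptotagmins were far more abundant than ESYT3, and neither was a DEG in any comparison. Per length, in MDA-MB-231 7TGP-NEG at low serum, ESYT1 was at 137 TPM and ESYT2 at 87.1 TPM, beside 0.55 TPM of ESYT3. The log2 fold changes in MDA-MB-231 were -0.26 and -0.44 for ESYT1 and 0.12 and 0.12 for ESYT2, and in MDA-MB-436 0.12 and 0.14, and -0.12 and -0.12. Of the 24 contact-site genes tested, none was a DEG in MDA-MB-231 at low serum by edgeR or DESeq2 (12 had an unadjusted p under 0.05) and 2 were at standard serum, with 3 in MDA-MB-436 in each condition. GRAMD1B, a sterol transporter, fell in MDA-MB-436 (-2.00, adjusted p = 1.11e-17, and -2.47, adjusted p = 1.44e-09), and JPH2, a junction protein, rose (1.46 and 1.65). GRAMD2A held 2, 0, 0 and 0 counts in the MDA-MB-436 7TGP-NEG libraries and 16, 9, 18 and 18 in 7TGP-POS.

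Finally, each gene was set beside 12515 genes by Pearson correlation of log2 levels over the 16 libraries, as a description. The levels were centred within each serum condition, so the mean difference between the 2 conditions and their preparations did not enter. The libraries fall into 8 groups of replicates, so these values rest on few independent points. A correlation compares the pattern of levels and not the size of a change. The genes most like LRMDA were NAP1L3 (r = 0.985), a histone chaperone relative, UBQLN2 (r = 0.980) and PLCB1 (r = 0.979). At low and standard serum their log2 fold changes in MDA-MB-231 were 3.85 and 4.17, 0.86 and 1.055, and 2.11 and 2.19. Those most like PPP2R2C were MFGE8 (r = 0.988), SCARA3 (r = 0.987) and CGNL1 (r = 0.984). In MDA-MB-231 at low serum MFGE8 had a log2 fold change of -0.88, SCARA3 of -3.35 and CGNL1 of -2.97. Most like SH3BGRL was ANKH (r = 0.993), a membrane protein of pyrophosphate transport with log2 fold changes of -1.72 and -1.43 in MDA-MB-436, followed by ARHGAP31 (r = 0.979) and ZFP82 (r = 0.978). LRRN1 was most like HS6ST1 (r = 0.992), CYFIP2 (r = 0.991) and DDX41 (r = 0.990). These had log2 fold changes of -0.79, -1.14 and -0.23 in MDA-MB-231 at low serum. ESYT3 was most like B4GALNT3 (r = 0.981), CD276 (r = 0.980) and KIAA0232 (r = 0.978), with -1.42, -0.70 and -0.47 there. Among the 5 genes themselves, LRRN1 and ESYT3 were the most alike pair (r = 0.976), PPP2R2C followed with ESYT3 (r = 0.906) and LRRN1 (r = 0.884), and LRMDA was like none of the others (r between -0.203 and 0.241).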

How the data were processed

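The count values are raw whole-number counts per gene as deposited by the authors, who aligned reads to ribosomal RNA with Bowtie and to hg19 with STAR (2.6.1a in the submitters' processing notes) and counted on Gencode v19 genes. The TPM values were also deposited by the authors; how TPM was calculated is not given in the sources used here. Biotypes and symbols came from Gencode lifted to GRCh37 and matched 55538 of 57820 rows. Tests covered protein-coding genes that reached 10 counts in the sum of the 8 low-serum (16069 genes) or 8 standard-serum libraries (15414). edgeR 4.0.16 (R 4.3.3) fitted 4 groups with TMM factors and the robust quasi-likelihood test, and each SE was derived from the F statistic and the fold change. The fit was also run on simulated counts with the same spread for all genes and changes only in genes with more counts. That run therefore does not cover genes with few counts. Replicates of a group differed by more than sampling noise (chi-square per degree of freedom 3.03 to 27.1), so no pair was merged. The 5 genes, the lists and the tests were chosen with earlier results of these data known. Named genes are the nearest neighbour on each side, neighbours called in the gene's own line, paralogs, up to 4 listed DEGs per list and comparison, and the 3 most alike genes. The alternatives were DESeq2 1.42.0, its size factors, other filters, all biotypes, a replicate block, 1 cell line alone, limma 3.58.1 on log2(TPM + 1) and log2(TPM + 0.1), other neighbour windows and leaving out each library. Correlations used log2(CPM + 0.5), centred within each serum condition, of genes averaging 1 CPM or more. RefSeq start windows were matched by symbol (5 of 5). Protein sequences, the row of ORAI1 and tests between serum conditions were not used here.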

Additional observations from a re-analysis of the deposited data

Results flagged for a closer look

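The values here are log2 fold changes of 7TGP-POS over 7TGP-NEG in MDA-MB-231 minus those in MDA-MB-436, listed because the 2 cell lines differed. LRMDA (5.5 at low and 6.58 at standard serum) and SH3BGRL (5.37 and 5.72) were higher in 7TGP-POS of MDA-MB-231 and lower in 7TGP-POS of MDA-MB-436. These genes were selected on these values, and the difference was not tested. The remaining values passed edgeR's test of the difference, with adjusted p-values up to 0.0332, and a difference of at least 1. Among the chromosomal neighbours, HMGN5 differed by 2.14 at low and 2.81 at standard serum, KCNMA1 by -1.45 and -2.02, RPS6KA6 by -1.67 and -3.31, S100P by -1.76 and -1.06, and SUMF1 by -1.31 and -1.16. CRBN differed by -1.02 at low serum, and MAN2B2 by 1.21 and ZNF503 by 1.7 at standard serum.

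Of the leucine-rich repeat genes, SLITRK6 differed by 6.31 at low and 4.58 at standard serum, SLITRK5 by 4.07 and 3.29, LINGO2 by 4.0 and 8.3, FLRT2 by -3.63 and -2.62, AMIGO1 by -1.63 and -2.26, and AMIGO2 by -1.83 and -2.23. FLRT3 differed by -4.04 at low serum. Of the melanocyte genes, MLPH differed by -6.29 and -6.98 and RAB38 by -1.27 and -2.3, and at low serum MC1R by -1.79 and TYRP1 by -2.97. Of the contact-site genes, GRAMD1B differed by 2.82 and 6.67, GRAMD2A by -4.46 and -8.15, and JPH2 by -1.13 and -1.75. LINGO2, GRAMD1B, GRAMD2A, TYRP1 and RPS6KA6 had a group at 3 counts or fewer in each library in at least 1 condition, where the fitted size depends on the prior count.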

How the results depend on the processing

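Groups of 2 cultures from 1 sorted population limit every p-value, and genes under about 10 counts have fitted changes that move with single libraries. No result changed direction. With limma on log2(TPM + 1), the DEGs over all genes numbered 302 and 793 at low serum (MDA-MB-231, MDA-MB-436) and 522 and 941 at standard serum, the neighbour DEGs 0, 4, 3 and 3, and the listed DEGs 4 in MDA-MB-436 at low serum and 4 and 6 at standard serum. In the same order the log2 fold changes then were 2.69, -0.41, 3.62 and -0.48 for LRMDA, -2.77, -1.08, -3.38 and -0.52 for PPP2R2C, -0.91, -1.10, -0.78 and -1.65 for LRRN1 and -0.41, -0.72, -0.35 and -0.76 for ESYT3, and for SH3BGRL 0.40 and -4.34 at low serum and -4.16 in MDA-MB-436 at standard serum. With log2(TPM + 0.1) they were 4.51, -0.47 and 5.49 for LRMDA (MDA-MB-436 at standard serum moved by less than its spread), -4.50, -1.12, -4.91 and -0.53 for PPP2R2C, 0.41 (MDA-MB-231, low serum) and -4.55 (MDA-MB-436, standard serum) for SH3BGRL, -1.21 (MDA-MB-436, low serum) and -2.10 (MDA-MB-231, standard serum) for LRRN1 and -1.39 (MDA-MB-231, standard serum) for ESYT3, with 1 neighbour DEG in MDA-MB-231 at low serum and 5 in MDA-MB-436 at standard serum. DESeq2 and the stricter filter of edgeR's filterByExpr each gave 5 neighbour DEGs in MDA-MB-436 at low and 5 at standard serum. In MDA-MB-231 at low serum, 10 neighbours on each side gave 4 DEGs and a window of 1 Mb gave 1. By adjusted p alone, 22, 27, 15 and 27 neighbours were called. The limma fits changed the unit, the pseudocount and the test together, some changes were larger and others smaller under them, and the cause was not tested.

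Leaving out 1 library at a time gave, in the same order, 827 to 941, 1578 to 1620, 1006 to 1145 and 1704 to 1982 DEGs, and 1 to 2, 6 to 7, 4 to 6 and 5 to 9 neighbour DEGs. The log2 fold changes ranged from 5.83 to 6.15 for LRMDA (MDA-MB-231, standard serum), from -0.94 to -0.86 (MDA-MB-436, low serum) and -5.56 to -5.08 (MDA-MB-231, standard serum) for PPP2R2C, from -5.15 to -4.54 for SH3BGRL and -1.08 to -0.94 for LRRN1 (MDA-MB-436, low serum), and from -3.07 to -1.76 for ESYT3 (MDA-MB-231, standard serum).

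The libraries share only replicate numbers (correlations of same-numbered deviations 0.0266 and -0.18 at low serum, 0.405 and 0.236 at standard serum). With a replicate block there were 926, 1667, 1170 and 1938 DEGs and 2, 8, 6 and 8 neighbour DEGs, and of the named calls only TENT5D in MDA-MB-436 at standard serum was lost. A crossed pairing in MDA-MB-436 at low serum, chosen after seeing the data, gave 1695 DEGs and 8 neighbour DEGs.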
